A study of Homo sapiens with 2 samples.

Results

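The collagens, laminins and integrins are the genes of the extracellular matrix that cells rest on and of the receptors that hold them to it. The set was taken by name from the array annotation: every probe with a single gene symbol of a collagen, laminin or integrin chain, together with *FN1*, *VTN*, *NID1*, *NID2*, *HSPG2* and *DAG1*. The array had 47323 probes in all, 30113 of them with 1 gene listed, and 20046 named genes. The set held 84 genes at 137 probes. There were 43 collagen chains, 10 laminin chains, 26 integrin chains and 5 other matrix genes. *COL17A1*, *LAMA3* and *DAG1* had no such probe and were not analysed here. The rule itself uses no expression value, though the set was chosen with earlier results of these data known.

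Intensities came from 2 single-colour Illumina bead arrays, 1 for each biological replicate of a single group, so no comparison between conditions could be made and no p-value is given. The cells came from HUES8, a human embryonic stem cell line grown in suspension, and had been taken to stage 6 of a differentiation protocol that yields SC-beta cells, made from stem cells to resemble the islet cells that release insulin. They were then sorted for NKX6-1 and insulin, and total RNA was recovered by MARIS, a method made for fixed, stained and sorted cells. Both replicates share the line, the protocol and the sort, and the model is thus a single line sorted on a pair of markers. The design names earlier published arrays with which these were normalized, of human islet cells, of HUES8 cells before differentiation and of insulin-positive cells made by older protocols. Those arrays were not analysed here.

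Collagens are made of 3 chains wound into a triple helix. Fibrillar collagens form the fibres of connective tissue, while type IV collagen forms the network of the basement membrane, the thin sheet under epithelia and around blood vessels. Laminins are cross-shaped trimers of an alpha, a beta and a gamma chain and form the second network of that sheet, which nidogens and perlecan (*HSPG2*) link to type IV collagen. Integrins are cell-surface pairs of an alpha and a beta chain that bind these proteins and connect them to the actin cytoskeleton. In the mouse pancreas, islet capillaries are known as a main source of the basement membrane that beta cells touch, and integrins with the *ITGB1* chain as main receptors of the beta cell for it.

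A probe counted as above background where its intensity passed 15.9 on replicate 2 and 18.01 on replicate 1, the 95th percentile on each array of the 457 olfactory receptor probes, taken as probes whose genes are mostly silent. A gene counted where any of its probes passed on both arrays, and it is represented below by its brightest such probe. By this rule 9393 of the 20046 named genes (46.9%) passed on both arrays. Probes differ in how brightly they bind, so an intensity says nothing of 1 gene's level against another's. Over the beta cell markers, 9 of 10 measured genes passed on both arrays. *NKX6-1*, whose protein was used for the sort, had an intensity of -4.24 on replicate 2 and 78.9 on replicate 1 at its only probe, so on replicate 2 its RNA was not above background. With 1 array for each replicate, a difference between replicates has no replicate check of its own, and in bulk samples fewer cells of a type and less RNA per cell cannot be told apart.

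Of the 84 genes, 31 (36.9%) were above background on both arrays, beside 46.9% of all named genes. Those 31 were 18 of 43 collagens (41.9%), 5 of 10 laminins, 7 of 26 integrins (26.9%) and 1 of the 5 other matrix genes. A further 9 genes passed on replicate 2 only, beside 7.69% of all named genes, and 1 on replicate 1 only, beside 4.67%. The other 43 passed on neither array. Of the 31 genes above background, 12 had more than 1 probe, and in 11 of these at least 1 probe was not above background on both arrays, and the values given are those of the brightest probe.

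**Figure D1:**
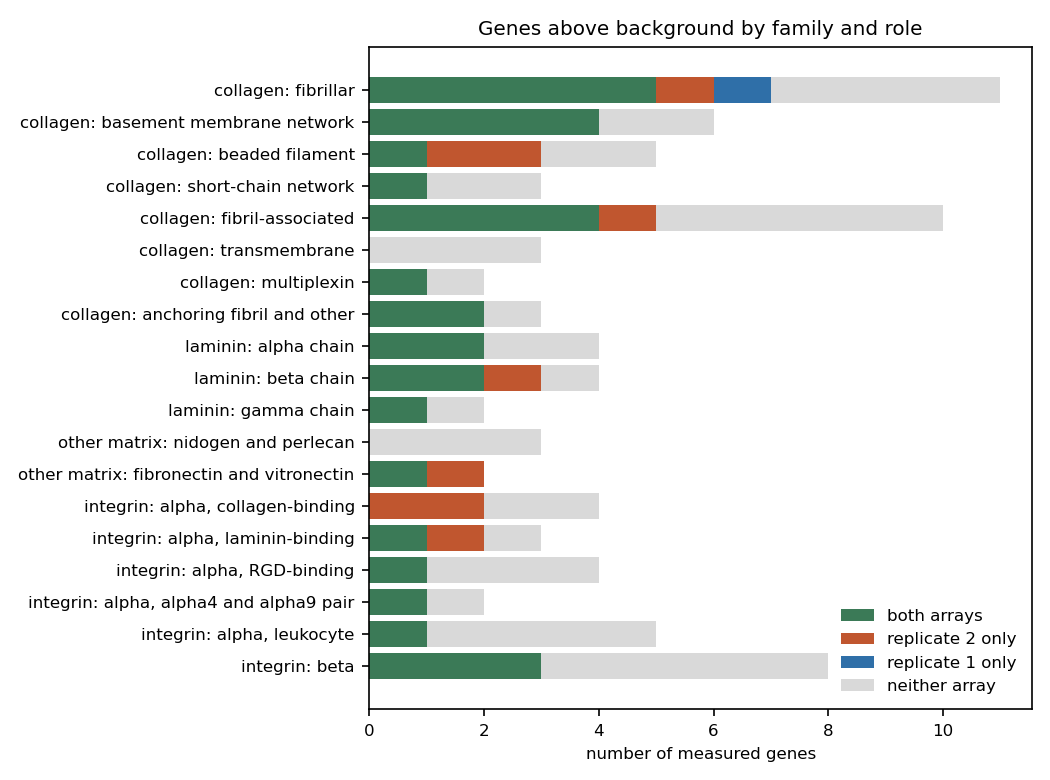
Number of measured genes (x axis) in each role of the matrix and integrin families (y axis), coloured by whether the gene was above background on both arrays, on replicate 2 only, on replicate 1 only or on neither. Of the type IV collagen chains 4 of 6 passed on both arrays, while none of the 3 nidogen and perlecan genes and none of the 4 alpha chains of collagen-binding integrins did. Over all named genes 46.9% passed on both arrays.

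Of the 6 type IV collagen chains, 4 (66.7%) were above background on both arrays, beside 46.9% of all named genes. Type IV chains are encoded by gene pairs that lie head to head, each pair sharing the stretch between its start sites: *COL4A1* with *COL4A2*, *COL4A3* with *COL4A4*, and *COL4A5* with *COL4A6*. *COL4A5*, whose loss causes Alport kidney disease, had 976 on replicate 2 and 469 on replicate 1 (723 ± 359, mean ± SD, n = 2). Its neighbour *COL4A6*, a chain of smooth muscle and some epithelial basement membranes, had 215 on replicate 2 and 108 on replicate 1. Both genes of this pair were higher in replicate 2 by nearly the same amount, *COL4A5* by 1.06 and *COL4A6* by 1.00 on the log2 scale.

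The other detected pair went in opposite directions. *COL4A1*, a chain of the ubiquitous type IV network, had 161 on replicate 2 and 72.1 on replicate 1, a difference of 1.16. Its partner *COL4A2* had 31.6 on replicate 2 and 60.9 on replicate 1, a difference of -0.95. The genes of the third pair, *COL4A3* (0.130 on replicate 2 and -10.7 on replicate 1) and *COL4A4* (-4.02 on replicate 2 and -7.94 on replicate 1), were above background on neither array. Every chain of the trimers made of *COL4A1* with *COL4A2* and of *COL4A5* with *COL4A6* was above background, and of the kidney trimer of *COL4A3*, *COL4A4* and *COL4A5* only *COL4A5* was. *COL4A5* was above background at 1 of its 2 probes and *COL4A6* at 1 of 3. The others of the 4 detected genes had 1 probe each.

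The promoters of these pairs are shown because they are the sequence each pair shares. RefSeq windows of build GRCh38.p14, from 250 bases before to 50 after a start site, were found for 61 of the 84 genes, at 80 start sites. The starts lie 127 bases apart for *COL4A1* and *COL4A2*, 380 for *COL4A6* and *COL4A5*, and 419 for *COL4A4* and *COL4A3*. In the sequences, capitals mark every match on either strand to 3 motifs, with overlapping matches counted separately. The GC box, known as a site for SP family factors, was searched as GGGCGG. The second motif, known from NF-Y binding, was searched by the letters of its name, CCAAT. The TATA box, which places the start site in some promoters, was searched as TATAAA. Of all 35116 windows in the RefSeq table, 45.0% hold a GC box, 34.6% a CCAAT box and 11.5% a TATA box. The *COL4A2* window (plus strand, chr13:110307034-110307333) shares 226 bases with that of *COL4A1*. The *COL4A5* window (plus strand, chrX:108439588-108439887) and the *COL4A6* window (minus strand, chrX:108439409-108439708) share 121 bases. The *COL4A3* window (plus strand, chr2:227164374-227164673) stands for the pair that was not detected.
COL4A2: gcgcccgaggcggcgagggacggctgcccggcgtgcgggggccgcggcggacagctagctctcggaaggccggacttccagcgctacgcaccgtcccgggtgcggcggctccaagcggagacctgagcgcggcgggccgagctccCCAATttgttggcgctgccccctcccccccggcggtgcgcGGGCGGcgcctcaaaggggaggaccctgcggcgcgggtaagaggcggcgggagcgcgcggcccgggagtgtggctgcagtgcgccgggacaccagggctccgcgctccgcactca
COL4A5: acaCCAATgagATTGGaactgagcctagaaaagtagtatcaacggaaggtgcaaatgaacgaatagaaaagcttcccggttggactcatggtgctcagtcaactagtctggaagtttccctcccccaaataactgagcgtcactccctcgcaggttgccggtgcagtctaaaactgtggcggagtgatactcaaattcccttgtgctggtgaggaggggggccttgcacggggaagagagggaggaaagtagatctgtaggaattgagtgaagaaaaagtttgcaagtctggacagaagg
COL4A6: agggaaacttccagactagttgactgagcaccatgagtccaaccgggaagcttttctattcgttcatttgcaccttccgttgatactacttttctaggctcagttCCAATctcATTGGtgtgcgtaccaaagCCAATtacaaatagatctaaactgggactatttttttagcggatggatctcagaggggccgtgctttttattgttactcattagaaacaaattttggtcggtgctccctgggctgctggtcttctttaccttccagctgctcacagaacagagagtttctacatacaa
COL4A3: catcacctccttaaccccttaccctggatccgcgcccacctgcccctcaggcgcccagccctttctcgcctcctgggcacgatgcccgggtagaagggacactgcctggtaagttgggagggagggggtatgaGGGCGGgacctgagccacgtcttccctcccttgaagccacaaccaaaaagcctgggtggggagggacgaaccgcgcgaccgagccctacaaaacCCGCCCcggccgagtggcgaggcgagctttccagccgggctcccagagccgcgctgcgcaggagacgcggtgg

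The window of *COL4A2* holds 1 GC box and 1 CCAAT box and has 45 CG dinucleotides. The windows shown for *COL4A5* and *COL4A6* hold no GC box, 2 and 3 CCAAT boxes, and only 8 and 7 CG dinucleotides. RefSeq has a second start for *COL4A6*, whose window holds 1 GC box, no CCAAT box and 5 CG dinucleotides and is not shown. In the stretch that the windows shown share, a CCAAT box on each strand stands 3 bases from the other. The window of *COL4A3* holds 2 GC boxes and 24 CG dinucleotides. A match describes the letters in the window and is not evidence that a factor binds there.

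The 5 laminin chains above background cover every chain of several known trimers. *LAMC1*, the gamma chain of most laminins, had 1160.5 on replicate 2 and 831 on replicate 1 (996 ± 233, mean ± SD, n = 2). *LAMA5*, the alpha chain of adult epithelial and vascular basement membranes, had 631 on replicate 2 and 1059 on replicate 1 (845 ± 303, n = 2). *LAMB1*, a beta chain found in many tissues, had 574 on replicate 2 and 304 on replicate 1 (439 ± 191, n = 2). Its second probe gave 419.8 on replicate 2 and 142 on replicate 1, so both of its probes were above background and higher in replicate 2.

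The other detected laminins differed more between the replicates. *LAMB2*, the beta chain of kidney filter and synaptic basement membranes, had 440.1 on replicate 2 and 91.3 on replicate 1, 4.82-fold higher in replicate 2. *LAMA1*, the alpha chain of early embryonic basement membranes, had 116 on replicate 2 and 24.8 on replicate 1, 4.69-fold higher in replicate 2, and its other probe passed on neither array. *LAMA1* did not pass on both arrays where the 99th percentile set the background. *LAMB2* and *LAMA1* had the widest differences toward replicate 2 among the 31 genes. *LAMB2* has a related pseudogene, *LAMB2P1*. The brighter of its probes had 30.8 on replicate 2 and 17.6 on replicate 1, and whether the *LAMB2* probe also binds its transcript was not tested.

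Of 11 laminin trimers in the list, 8 had every chain measured and 4 of these had every chain above background on both arrays. They are the trimers of *LAMA1* or *LAMA5* with *LAMB1* or *LAMB2* and with *LAMC1*. *LAMA2*, the alpha chain of muscle, had -4.23 on replicate 2 and 4.87 on replicate 1, and *LAMA4*, the alpha chain of blood vessels, had -5.22 on replicate 2 and -0.731 on replicate 1. Neither passed on either array, nor did *LAMB4* and *LAMC3*. *LAMB3*, a beta chain of skin and gland epithelia, had 16.6 on replicate 2 and 11.2 on replicate 1, just above the threshold of 15.9 on replicate 2.

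The promoters of the chains of 1 of these trimers are shown because each of its genes has a start site of its own, on chromosomes 20, 7 and 1. The windows are those of *LAMA5* (minus strand, chr20:62367263-62367562), *LAMB1* (minus strand, chr7:108003112-108003411) and *LAMC1* (plus strand, chr1:183023170-183023469), with capitals as above.
LAMA5: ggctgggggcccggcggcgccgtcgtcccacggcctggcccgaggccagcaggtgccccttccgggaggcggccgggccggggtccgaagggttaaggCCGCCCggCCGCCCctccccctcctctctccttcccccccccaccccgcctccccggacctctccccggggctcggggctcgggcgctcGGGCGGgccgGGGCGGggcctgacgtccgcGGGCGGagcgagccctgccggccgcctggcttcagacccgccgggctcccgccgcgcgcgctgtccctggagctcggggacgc
LAMB1: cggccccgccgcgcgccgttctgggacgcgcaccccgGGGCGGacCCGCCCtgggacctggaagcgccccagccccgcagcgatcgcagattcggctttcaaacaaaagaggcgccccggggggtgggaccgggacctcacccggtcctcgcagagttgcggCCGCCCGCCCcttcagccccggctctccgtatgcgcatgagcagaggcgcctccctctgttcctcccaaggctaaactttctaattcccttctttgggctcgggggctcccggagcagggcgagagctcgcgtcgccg
LAMC1: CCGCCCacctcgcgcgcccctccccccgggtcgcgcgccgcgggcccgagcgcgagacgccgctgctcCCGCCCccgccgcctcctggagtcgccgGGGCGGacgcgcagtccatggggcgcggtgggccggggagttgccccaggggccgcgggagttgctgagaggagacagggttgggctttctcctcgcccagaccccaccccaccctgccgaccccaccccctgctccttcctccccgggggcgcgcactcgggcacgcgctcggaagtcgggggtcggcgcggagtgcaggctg

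The 3 laminin windows hold 5, 4 and 3 GC boxes in that order and no CCAAT or TATA box, with 41, 35 and 41 CG dinucleotides. Across the set, 27 windows belonged to 20 of the genes above background on both arrays and 53 to 41 of the others. GC boxes stood in 19 of the 27 windows (70.4%) of detected genes and in 27 of the 53 windows (50.9%) of the others. The median window had 27 CG dinucleotides in detected genes, 16 in the others and 14 over all RefSeq windows. Some windows of 1 gene or of a head-to-head pair overlap, and these shares only describe the set. The same split by detection was not made over all genes, so whether it is particular to the set was not tested.

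Fibrillar collagens passed on both arrays in 5 of 11 cases (45.5%), near the 46.9% of all named genes. *COL5A2*, a chain of the type V collagen that starts fibrils, had 2039 on replicate 2 and 1658 on replicate 1 (1848 ± 269, mean ± SD, n = 2). Its partner chain *COL5A1* had 78.9 on replicate 2 and 156 on replicate 1, 1.98-fold lower in replicate 2. *COL2A1*, the collagen of cartilage, had 97.3 on replicate 2 and 91.8 on replicate 1 at 1 of its 2 probes. Of these 3 genes only *COL5A1* differed by nearly 2-fold between the replicates.

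The chains of type I collagen, the main fibre of bone, skin and tendon, both passed on both arrays. *COL1A2* had 45.3 on replicate 2 and 41.2 on replicate 1, and at its other probe -2.20 on replicate 2 and 35.9 on replicate 1. *COL1A1* had 20.1 on replicate 2 and 18.8 on replicate 1, just above the thresholds of 15.9 and 18.01, and it did not pass where the 99th percentile set the background. *COL3A1*, the other main fibrillar chain of soft tissue, had 76.6 on replicate 2 and 12.3 on replicate 1. *COL27A1*, a cartilage chain, was the only gene of the set above background on replicate 1 alone, with -7.19 on replicate 2 and 79.4 on replicate 1, at least 5.01-fold lower in replicate 2. *COL5A3*, *COL11A1*, *COL11A2* and *COL24A1* passed on neither array.

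Type VI collagen, which forms beaded filaments around cells, was detected in part. *COL6A1* had 120.0 on replicate 2 and 79.5 on replicate 1. *COL6A2* and *COL6A3*, the chains it assembles with, passed on replicate 2 only. *COL6A2* had 18.5 on replicate 2 and 9.52 on replicate 1, and *COL6A3* 26.0 on replicate 2 and 4.21 on replicate 1. *COL6A5* and *COL6A6* passed on neither array.

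Fibril-associated collagens, which coat or bridge fibrils, passed on both arrays in 4 of 10 cases (40%), beside 46.9% of all named genes. Among the 18 collagens detected on both arrays, they held the widest difference in each direction. *COL16A1* had 50.6 on replicate 2 and 206 on replicate 1, 4.08-fold lower in replicate 2. *COL9A2*, a chain of cartilage type IX collagen, had 114 on replicate 2 and 32.8 on replicate 1, 3.47-fold higher in replicate 2. The chains it assembles with were above background on neither array: *COL9A1* had 0.863 on replicate 2 and 1.03 on replicate 1, and *COL9A3* 8.05 on replicate 2 and -1.14 on replicate 1.

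*COL22A1*, a collagen of tissue junctions, had 308 on replicate 2 and 133 on replicate 1, 2.33-fold higher in replicate 2. *COL20A1* had 23.4 on replicate 2 and 31.2 on replicate 1. *COL12A1*, which is a fibril-associated chain of tendon and ligament, had 22.0 on replicate 2 and 0.146 on replicate 1. Of this role *COL14A1*, *COL19A1* and *COL21A1* passed on neither array.

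The remaining collagens were few. *COL18A1*, a basement membrane collagen whose end fragment is endostatin, had 227 on replicate 2 and 216 on replicate 1, 1.05-fold higher in replicate 2, while its other probe passed on neither array. *COL7A1*, the anchoring fibril of skin, had 93.6 on replicate 2 and 153 on replicate 1. *COL26A1* had 56.2 on replicate 2 and 98.9 on replicate 1. *COL8A2*, a short-chain collagen of the cornea, had 41.0 on replicate 2 and 41.3 on replicate 1 at 1 of 2 probes. None of the 3 measured transmembrane collagens (*COL13A1*, *COL23A1* and *COL25A1*) passed on either array, nor did *COL8A1*, *COL10A1*, *COL15A1* and *COL28A1*.

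The linkers of the basement membrane were above background on neither array. *NID1* had 2.43 on replicate 2 and 8.74 on replicate 1, *NID2* -8.64 and -7.61, and *HSPG2* -9.38 and -1.50 in the same order. Each had a single probe, and a dim probe cannot be told from a low transcript here. *VTN*, the plasma and matrix protein vitronectin, had 63.4 on replicate 2 and 169 on replicate 1, 2.67-fold lower in replicate 2. *FN1*, fibronectin, passed at 1 of its 3 probes and on replicate 2 only, with 23.3 on replicate 2 and 6.30 on replicate 1.

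**Figure D2:**
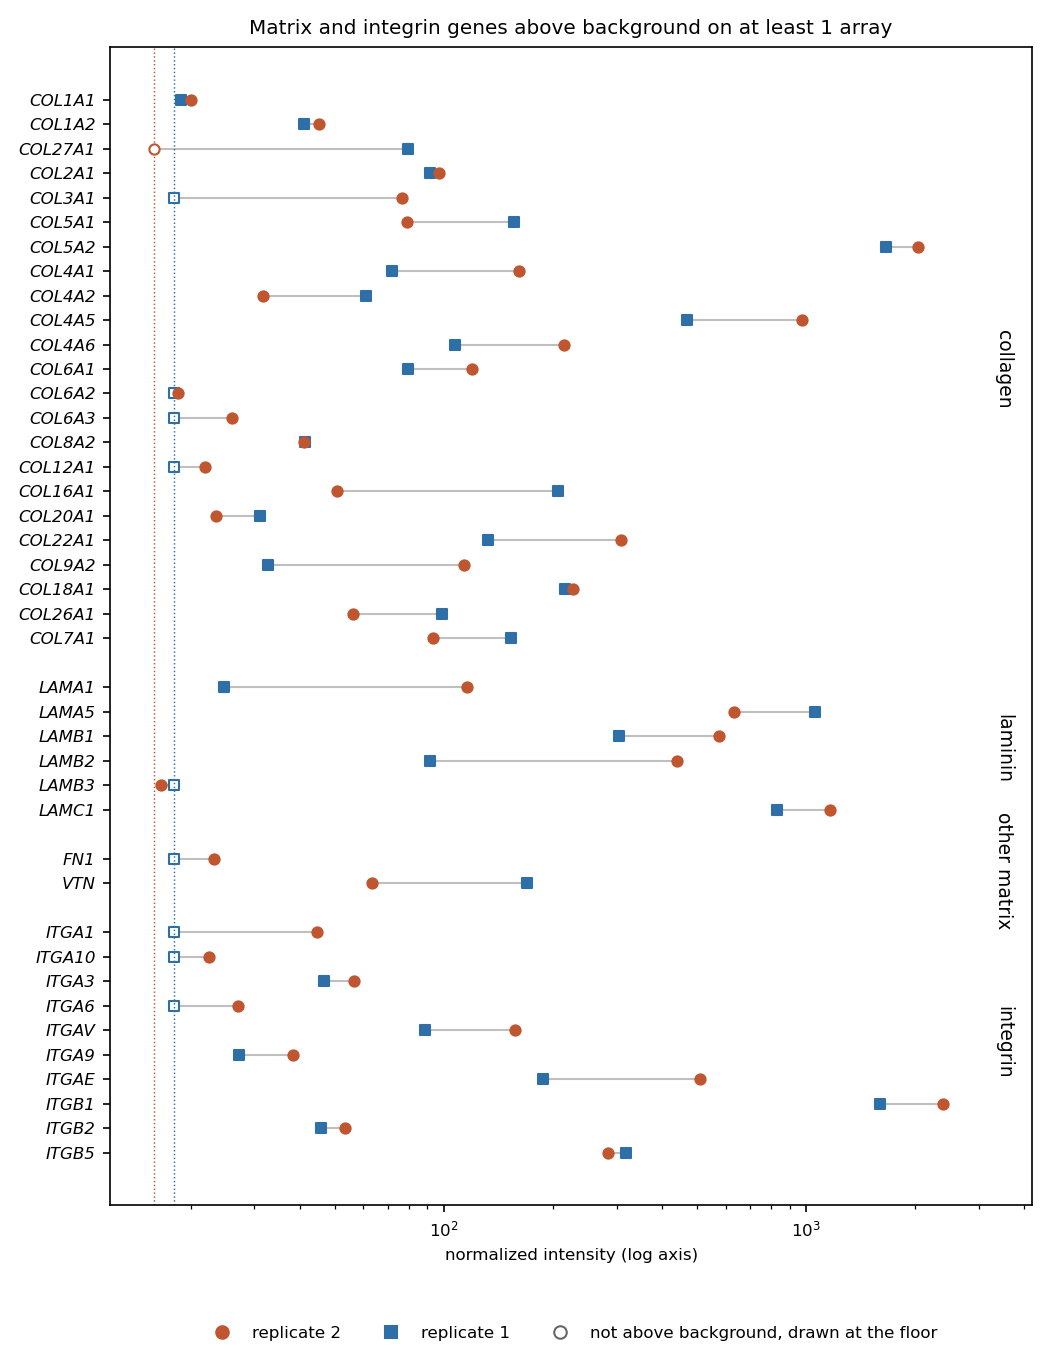
Normalized intensity (x axis, log scale) at the brightest probe of the 41 genes above background on at least 1 array (y axis), with circles for replicate 2, squares for replicate 1 and dotted lines at the background threshold of each array. Open symbols stand at the threshold for values that did not pass it. Most open symbols are squares, since 9 genes passed on replicate 2 only and 1 on replicate 1 only, and *COL5A2*, *ITGB1*, *LAMC1*, *LAMA5* and *COL4A5* lie far above the thresholds on both arrays. The threshold is lower on replicate 2 (15.9) than on replicate 1 (18.01).

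Of the 8 integrin beta chains, 3 (37.5%) passed on both arrays, beside 46.9% of all named genes. *ITGB1*, the partner of most alpha chains, had 2379 on replicate 2 and 1602 on replicate 1 (1990.1 ± 549, mean ± SD, n = 2). A second of its 4 probes gave 40.1 on replicate 2 and 54.1 on replicate 1, lower in replicate 2 where the brightest was higher, and the other 2 passed on neither array. *ITGB5*, a partner of *ITGAV* in vitronectin receptors, had 284 on replicate 2 and 319 on replicate 1, and 3 of its 5 probes passed on both arrays. *ITGB2*, the beta chain of leukocyte integrins, had 53.3 on replicate 2 and 45.7 on replicate 1, and at its other probe 13.4 on replicate 2 and 27.6 on replicate 1. *ITGB3*, *ITGB4*, *ITGB6*, *ITGB7* and *ITGB8* passed on neither array, among them all 4 probes of *ITGB4*, the beta chain of epithelial hemidesmosomes (8.79 on replicate 2 and 10.4 on replicate 1 at the brightest).

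Of the 18 alpha chains, 4 (22.2%) passed on both arrays, beside 46.9% of all named genes. *ITGAV*, which binds the RGD motif of vitronectin and fibronectin, had 157 on replicate 2 and 88.5 on replicate 1. *ITGA3*, a laminin receptor chain, had 56.4 on replicate 2 and 46.7 on replicate 1 at 1 of 2 probes. *ITGA9*, a receptor chain for tenascin and osteopontin, had 38.3 on replicate 2 and 27.2 on replicate 1. All 3 were higher in replicate 2, by less than 2-fold.

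*ITGAE*, a chain that binds E-cadherin and is known from lymphocytes within epithelia, had 510.4 on replicate 2 and 187 on replicate 1, 2.73-fold higher in replicate 2. Its only known partner *ITGB7* had 10.5 on replicate 2 and 5.30 on replicate 1 and was not above background. *ITGB2* likewise stood without a partner: *ITGAL*, *ITGAM*, *ITGAX* and *ITGAD* passed on neither array. Of 9 measured marker genes of leukocytes and platelets 2 passed on both arrays, *CD68* and *LYZ*, beside 46.9% of all named genes. The list summed to 519.8 on replicate 2 and 1015 on replicate 1. Nearly all of that sum was *CD68*, with 480.4 on replicate 2 and 962 on replicate 1. Such a sum includes values under the background, follows its brightest probes and does not measure the share of a cell type. The leukocyte marker *PTPRC* was not above background, with 6.43 on replicate 2 and 1.60 on replicate 1. Their part in these integrin values was not tested.

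The 4 alpha chains that bind collagen (*ITGA1*, *ITGA2*, *ITGA10* and *ITGA11*) did not pass on both arrays. *ITGA1* had 44.8 on replicate 2 and 0.452 on replicate 1, at least 2.48-fold higher in replicate 2, and *ITGA10* 22.5 on replicate 2 and 9.76 on replicate 1. *ITGA6*, a laminin receptor chain of epithelia and stem cells, had 27.0 on replicate 2 and 7.05 on replicate 1 at 1 of its 3 probes and passed on replicate 2 only. *ITGA2* (13.2 on replicate 2 and 14.4 on replicate 1), *ITGA4*, *ITGA5*, *ITGA7*, *ITGA8*, *ITGA11* and *ITGA2B* passed on neither array, with *ITGA2*, *ITGA4* and *ITGA11* passing on both where the 90th percentile set the background.

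Of 24 known integrin pairs, 4 had both chains above background on both arrays: *ITGA3*, *ITGA9* and *ITGAV* each with *ITGB1*, and *ITGAV* with *ITGB5*. On replicate 2 alone 7 pairs did, and on replicate 1 alone 4. Together with the laminins and type IV collagens, 10 of the 35 assemblies with every chain measured were complete. RNA of both chains does not show that the protein pair was on the cell surface.

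**Figure D3:**
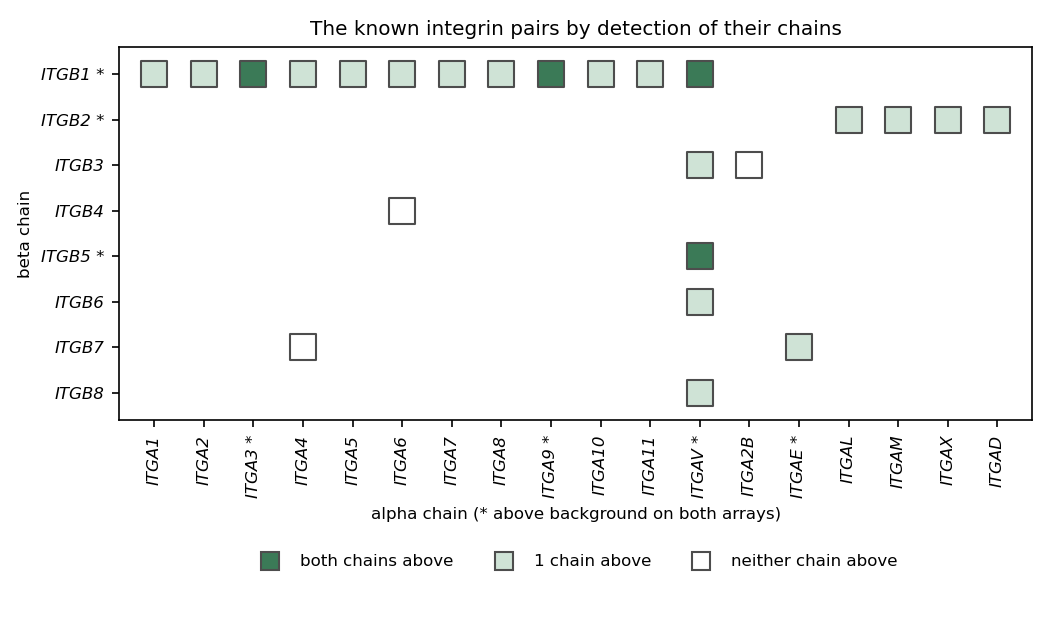
The 24 known integrin pairs, placed by alpha chain (x axis) and beta chain (y axis), and filled by whether both chains, 1 chain or neither was above background on both arrays. The 4 complete pairs hold *ITGA3*, *ITGA9* or *ITGAV*, and the pairs of *ITGB2* have only that chain above background.

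The 9 genes above background on replicate 2 only were *COL3A1*, *COL6A2*, *COL6A3*, *COL12A1*, *LAMB3*, *FN1*, *ITGA1*, *ITGA6* and *ITGA10*. The threshold was lower on replicate 2 (15.9) than on replicate 1 (18.01). *LAMB3* on replicate 2 (16.6) lay between the thresholds, as did *ITGA7* (16.5) and *ITGA11* (17.2) on replicate 1. *COL3A1* was at least 4.25-fold and *COL6A3* at least 1.44-fold higher in replicate 2, *COL3A1* passing on both arrays where the 90th percentile set the background. Of 12 markers of mesenchymal cells, the connective tissue cells that make most fibrillar collagen, 4 passed on both arrays, 5 on replicate 2 only and 0 on replicate 1 only, beside 46.9%, 7.69% and 4.67% of all named genes. Of the 4 on both arrays, *VIM*, *TWIST1* and *S100A4* were higher in replicate 2. *TAGLN* was 1.82-fold lower, with 112 on replicate 2 and 205 on replicate 1, at 1 of its 3 probes. The list summed to 816 on replicate 2 and 544 on replicate 1. *ACTA2* had 69.0 on replicate 2 and 10.4 on replicate 1, *THY1* 44.7 and -2.94, and *PDGFRA* 41.5 and -4.13 in the same order, while *LUM* was under the threshold on both (-0.329 and -5.36). Markers of endothelial cells passed on both arrays in 1 of 10 cases, and that gene, *CLDN5*, was 4.31-fold lower in replicate 2. Their list summed to 47.7 on replicate 2 and 141 on replicate 1, with *PECAM1*, *CDH5*, *VWF* and *KDR* above background on neither. Both sums include values under the background, follow their brightest probes and do not measure the share of a cell type. Of the duct and gut epithelium markers 6 of 9 passed on both arrays, and of the markers of undifferentiated stem cells 2 of 7. The part of these markers in the matrix values was not tested.

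Among the 31 genes detected on both arrays, 7 had at least 2-fold higher intensity in replicate 2 and 22 were within 2-fold, beside 13.5% higher by as much among all detected genes. They were *LAMB2*, *LAMA1*, *COL9A2*, *ITGAE*, *COL22A1*, *COL4A1* and *COL4A5*. Only 2 were lower by as much, *COL16A1* and *VTN*, beside 10.9% of all detected genes. Another 4 genes, *COL4A6*, *COL5A1*, *COL4A2* and *LAMB1*, differed by between 1.8-fold and 2-fold. The median difference of the 31 genes was 0.27 on the log2 scale, beside 0.21 over the 9393 detected genes. Higher values in replicate 2 were seen for 21 genes and lower ones for 10, beside 5721 higher and 3669 lower among all 9393 detected genes. When the 2 arrays were centred on their median probe, a shift of 0.15, the counts of the 31 genes became 17 and 14. Those of the collagens turned from 11 higher and 7 lower to 7 higher and 11 lower. Such counts were not made over all detected genes after centring. At the brightest probe of each gene, the laminins (4 higher, 1 lower) and integrins (6 higher, 1 lower) kept the same counts under both scalings.

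**Figure D4:**
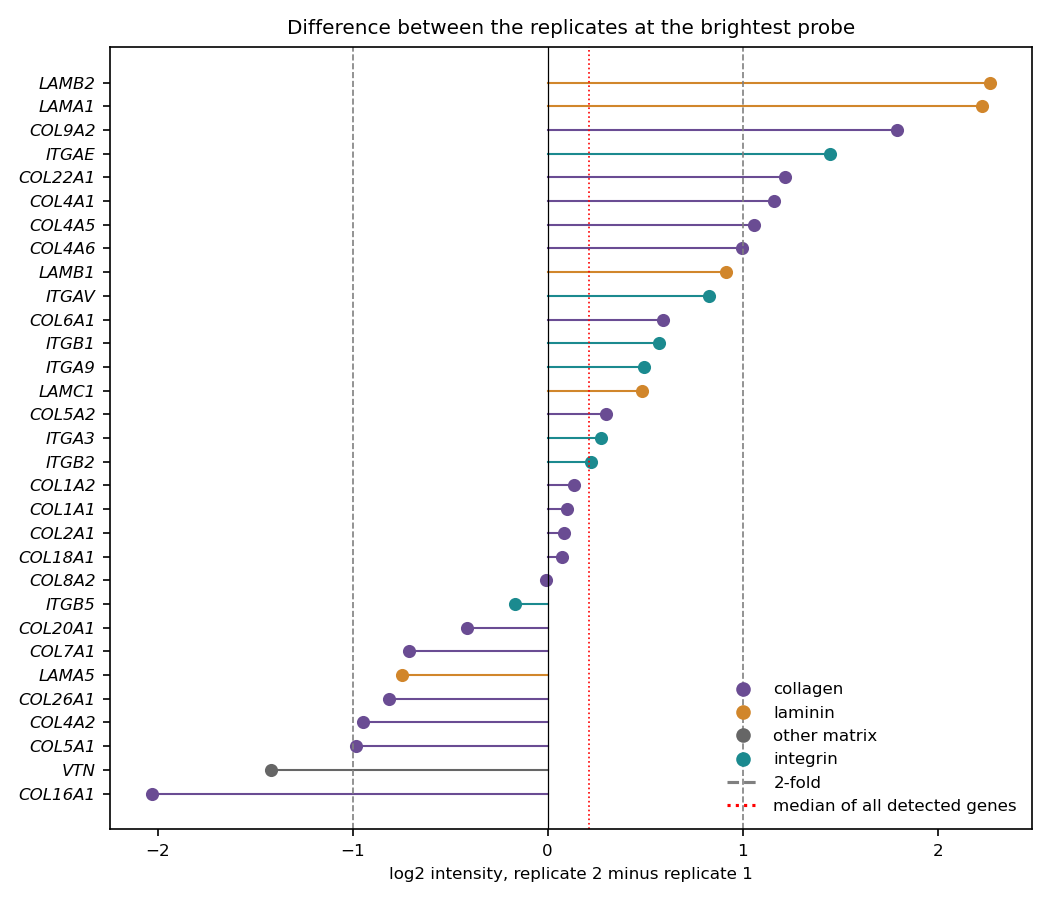
Difference in log2 intensity, replicate 2 minus replicate 1 (x axis), at the brightest probe of the 31 genes above background on both arrays (y axis), coloured by family, with dashed lines at 2-fold and a dotted line at the median of all detected genes. *LAMB2* (2.27) and *LAMA1* (2.23) stand at one end and *COL16A1* (-2.03) at the other, with most collagens between.

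The likeness of the arrays within the set was close to that over all genes. Across the 31 genes, Pearson's r between the replicates' log2 intensities was 0.847, with a Spearman's rho of 0.768. Over the 9393 detected genes r was 0.881 and rho 0.858. The SD of the log2 difference was 1.01 within the set and 0.920 over all detected genes. These are descriptions across genes, which share the 2 arrays and are not independent replicates.

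Genes that make and finish collagen chains inside the cell form a list of their own. Of 18 measured enzymes and chaperones, 14 (77.8%) passed on both arrays, beside 46.9% of all named genes. *P4HB*, the shared subunit of prolyl hydroxylase, had 1607 on replicate 2 and 2161 on replicate 1, and *SERPINH1*, the collagen chaperone, 88.0 on replicate 2 and 81.4 on replicate 1. *P4HA1*, the catalytic subunit, passed on both arrays at 1 of its 2 probes and was 2.10-fold higher in replicate 2. The prolyl 3-hydroxylase *P3H2* was 3.94-fold higher there. *PPIB*, *COLGALT1* and *FKBP10*, which fold or glycosylate the chains, were 6.14-fold, 4.77-fold and 4.12-fold lower. Outside the cell, 5 of 14 processing and crosslinking genes passed on both arrays. *LOXL4*, a crosslinking oxidase, had 5143 on replicate 2 and 2578 on replicate 1, while *LOX* was under the threshold on both (-3.04 and -6.43). *PXDN*, the peroxidase that crosslinks type IV collagen, had 383 on replicate 2 and 162 on replicate 1, 2.37-fold higher in replicate 2.

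Among the intracellular partners of integrins, 24 of 35 measured adaptors (68.6%) were above background on both arrays, beside 46.9% of all named genes. The kinase *PTK2*, known as focal adhesion kinase, had 1575 on replicate 2 and 974 on replicate 1, and *VCL*, vinculin, had 1121 on replicate 2 and 517 on replicate 1, 2.17-fold higher in replicate 2. Among the 24, *VCL* was the only one higher by 2-fold or more, beside 13.5% of all detected genes. Lower by as much were 5 of the 24, *SRC*, *BCAR1*, *CIB1*, *ACTN1* and *ILK*, beside 10.9% of all detected genes. Of these genes *VCL*, *SRC* and *ILK* each passed on both arrays at only 1 of 3 probes. *SRC*, a kinase that acts with focal adhesion kinase, was 10.8-fold lower, with 46.0 on replicate 2 and 497 on replicate 1. *BCAR1*, a scaffold of the same complex, had 21.2 on replicate 2 and 106 on replicate 1. *VASP* and *SHARPIN*, above background on replicate 1 only, were at least 6.65-fold and at least 4.05-fold lower in replicate 2. The talins *TLN1* and *TLN2* and the kindlin *FERMT2*, which switch integrins on, passed on both arrays within 2-fold. Of 11 other matrix receptors and tetraspanins 7 passed on both arrays (63.6%, beside the same 46.9%). The tetraspanin *CD81* had 5744 on replicate 2 and 7934 on replicate 1. *DDR1*, a collagen receptor kinase of epithelia, had 183 on replicate 2 and 826 on replicate 1, 4.52-fold lower in replicate 2, at 1 of its 3 probes. *CD44*, a hyaluronan receptor, had 100.4 on replicate 2 and 9.48 on replicate 1 and passed on replicate 2 only. Among other basement membrane and matrix genes 9 of 30 passed on both arrays (30%, below that 46.9%). Agrin (*AGRN*) had 68.4 on replicate 2 and 125 on replicate 1. The glypican *GPC4*, the syndecan *SDC1* and the Fraser complex gene *FREM2* were 2.69-fold, 2.51-fold and 2.40-fold higher in replicate 2, and *EFEMP1*, a fibulin, was 2.34-fold lower. *SDC1* passed on both arrays at only 1 of 3 probes and *FREM2* at 1 of 2.

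**Figure D5:**
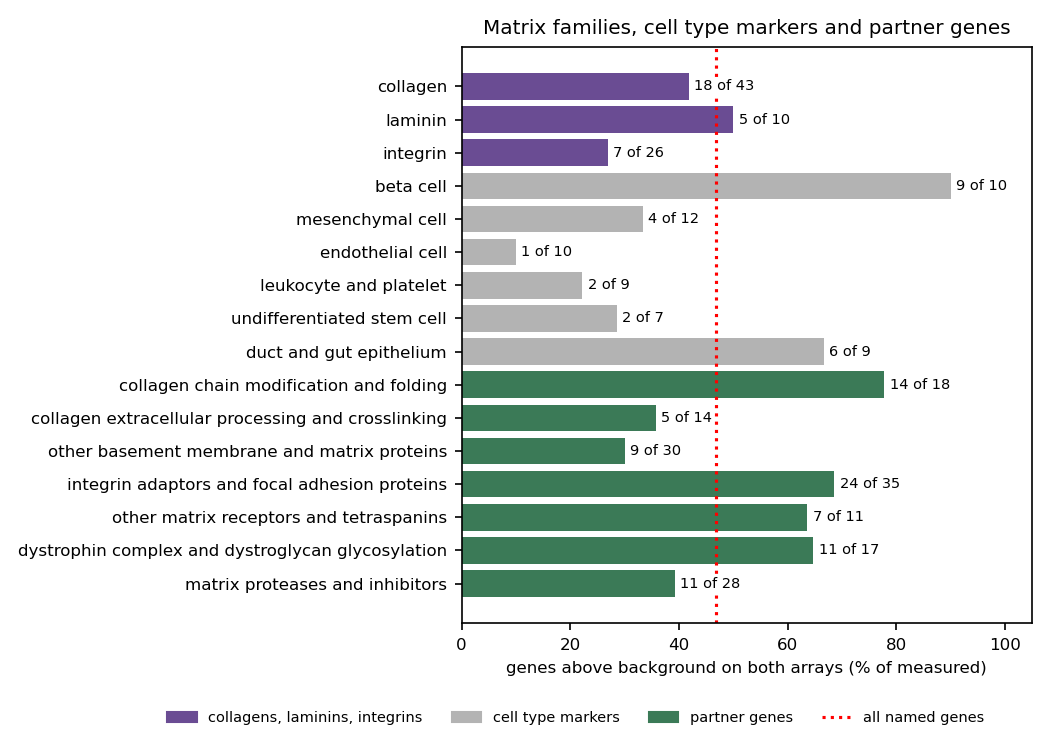
Percentage of measured genes above background on both arrays (x axis) for the matrix families, the cell type marker lists and the lists of partner genes (y axis), with the number of genes beside each bar and a dotted line at the share of all named genes. Collagen modification enzymes (14 of 18) and integrin adaptors (24 of 35) lie above that line, and collagens (18 of 43) and integrins (7 of 26) below it.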

How the data were processed

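The deposited values are linear normalized intensities of every probe on each array. The submitters' processing notes name GenomeStudio, and per the labels' design text the arrays were normalized together with earlier ones; the method is not given in the sources used here. The intensities reach down to -22.6, as background subtraction leaves, and the sorted values of the arrays differ by at most 0.155, as quantile normalization leaves. Such scaling hides a shift common to all genes. Gene names came from the platform annotation held by GEO: 30113 probes had 1 gene, 8 several and 17202 none listed. Symbols of 30074 probes were matched to RefSeq, which changed no symbol of the set. The integrin, collagen and laminin genes, the gene lists and the naming rule were chosen with earlier results of these data known. The naming rule took every gene of the set above background on at least 1 array, the other members by symbol, and of the partner lists the 4 highest genes and those 2-fold or more apart, read here as the 4 highest over all lists and the genes detected on both arrays. Other list genes were named for their role, after their values were seen. That ranking only chose names, since probes differ in brightness. Values under the background were set to it before log2. A fold against an array where the gene was not above background is a lower bound against that array's background or the gene's own value if higher. With 1 group of 2 arrays no test was possible, and the number of arrays limits the precision. The design text calls the arrays biological replicates, and SDs cover the spread between these 2 arrays. Counting functions were tested on simulated data in which silent and detected genes lay well apart and the arrays differed little by noise. That check does not cover calls near the background. Python 3.11.15, numpy 2.4.6, pandas 2.3.3 and matplotlib 3.10.9 were used. Alternatives covered the background (90th and 99th percentile, and keratin-associated protein and taste receptor probes), the probe of a gene, the scaling, an offset of 50 before log2 and each array alone.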

Additional observations from a re-analysis of the deposited data

How the results depend on the processing

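Of 54 recomputed counts and medians, 49 stayed within 1.5 times the reported count or within 0.1 of the reported median. The number of genes above background on both arrays was 31 as reported, 35 and 27 with the 90th and 99th percentile as background, 31 with keratin-associated protein and taste receptor probes, 29 by the median probe of a gene, and 40 and 32 on replicate 2 and replicate 1 alone. At the 99th percentile *COL1A1*, *COL20A1*, *ITGA9* and *LAMA1* no longer passed, and complete assemblies numbered 7 in place of 10. They also numbered 7 by the median probe. The differences between replicates depended more on the scaling. With an offset of 50 before log2, which shrinks differences of dim probes, 3 genes were 2-fold or more higher in replicate 2 and 1 lower, and the median difference was 0.14, as over all detected genes (0.14, with 4.84% higher and 6.28% lower). After centring on the median probe 6 were 2-fold or more higher and 4 lower by as much, beside 9.58% and 13.2% of all detected genes. The median was then 0.12, beside 0.06 over all detected genes. At the median probe of a gene, intensities of 9 of the 12 detected genes with more than 1 probe moved by more than the SD between replicates. A dim probe limits what can be said of genes near the background.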

Other observations

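Dystroglycan, another laminin receptor, was not measured, but genes of its complex and of its sugar chains were. Of 17 measured, 11 passed on both arrays, beside 46.9% of all named genes. Of these, 4 were 2-fold or more higher in replicate 2 and 0 lower, beside 13.5% and 10.9% of all detected genes. *DTNA*, which encodes dystrobrevin, had 120 on replicate 2 and 46.8 on replicate 1, and *SNTB2*, a syntrophin, 133 and 55.1 in the same order. *DTNA* passed on both arrays at only 1 of 3 probes and *SNTB2* at 1 of 2. *SGCE*, a sarcoglycan, had 347 and 163, and *POMGNT2*, a glycosyltransferase of dystroglycan, 292 and 118 in that order. *DMD*, dystrophin, was under the threshold on both arrays (9.34 and 11.9), and its relative *UTRN* had 30.7 and 23.1.

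Genes of matrix breakdown passed on both arrays in 11 of 28 cases, beside 46.9% of all named genes. *ADAM15* and *MMP11* were 6.20-fold and 2.19-fold lower in replicate 2, and *MMP1*, an interstitial collagenase, was 3.66-fold higher. The other passing probe of *ADAM15* had a smaller difference, -0.97 on the log2 scale. The membrane proteases *MMP15* and *MMP16* went in opposite directions. *MMP15* had 20.3 on replicate 2 and 195 on replicate 1, 9.59-fold lower in replicate 2. *MMP16* had 280.3 on replicate 2 and 65.5 on replicate 1, 4.28-fold higher, at 1 of its 2 probes. *RECK*, a membrane inhibitor of such proteases, was 3.21-fold higher in replicate 2, and *TIMP1*, a secreted one, had 718 on replicate 2 and 484 on replicate 1. *MMP2* and *MMP14* passed on neither array.

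*LAIR1*, a collagen receptor of leukocytes, had 14789 on replicate 2 and 14426 on replicate 1 at 1 of its 2 probes, and 2.54 and 2.43 at the other. The gap between its probes was seen on both arrays, and which transcript the bright probe reads was not tested. *TNC*, a ligand of the *ITGA9* receptor, had 152 on replicate 2 and 627 on replicate 1 and was 4.12-fold lower in replicate 2. Its other probe was higher in replicate 2, by 0.34 on the log2 scale.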
